A study of Mus musculus with 2 samples.

Results

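Lyve1, Folr2, Timd4, Cd163, Mrc1, F13a1, Ccr2, Cx3cr1, Adap2 and Ly86 are genes used to tell resident cardiac macrophages from those recruited out of the blood. These 10 were taken by symbol from the 32245 gene symbols of the tables, and all 10 were found in both libraries. Nuclei of mouse heart were sequenced in 2 libraries, both from male C57Bl6/J mice of 3.5 months that carried Tcf21-MerCreMer and received tamoxifen. The CF-KI library was Nlrp3-A350V/A350V, a constitutively active form of the inflammasome sensor, and the control library was Nlrp3-WT/WT. The inducible Cre is driven by Tcf21, a fibroblast gene, and the submitters state that the Nlrp3 allele stays silent in cells without Cre. Each group is 1 library, and the number of animals in it is not stated. The conditions could therefore not be tested, and every difference given here is one between 2 libraries.

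Resident heart macrophages are seeded before birth and largely renew in place, while others arise from blood monocytes throughout life. Lyve1, Folr2 and Timd4 are typical of the resident cells, and Cd163, Mrc1 and F13a1 of a scavenging, tissue-supporting state. Ccr2 is the receptor through which monocytes answer the chemokine Ccl2, and macrophages that carry it tend to hold more MHC class II.

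Of the most abundant genes, F13a1 spans chr13:36867178-37050244 on the minus strand and Mrc1 chr2:14229392-14332057 on the plus strand (GRCm38, the assembly also called mm10). Cd163 spans chr6:124304656-124330527 on the plus strand and Folr2 chr7:101839988-101857194 on the minus strand. The annotated span of Cx3cr1 (chr9:119901616-120069879, minus strand) overlaps Gorasp1, Csrnp1 and Xirp1 on its own strand, and that of Adap2 (chr11:80154105-80178958, plus strand) overlaps the antisense gene Adap2os. Folr2, F13a1 and Cx3cr1 also overlap genes on the opposite strand, and Mrc1 overlaps Mir511 on its own strand. How reads in these overlaps were assigned is not given in the sources used here. The counts of Cx3cr1, Adap2, Folr2, F13a1 and Mrc1 are uncertain to that extent. Sequence before the start site came from RefSeq (GRCm38.p6), which matched 9 of the 10 genes, all but Lyve1. The 250 bases before the start of F13a1, Mrc1, Cd163 and Folr2 are shown, 4 of the 5 genes with their highest level in macrophage-like nuclei of both libraries. Ccr2, the other, had no match in its window, which reaches into its annotated span (chr9:124101950-124113557, plus strand), and is not shown. Each runs 5′ to 3′ on the strand of its gene, and capitals mark GAGGAA, the core of sites for the myeloid factor PU.1, on either strand (TTCCTC when reversed).
Mrc1, chr2:14229164-14229413, plus strand: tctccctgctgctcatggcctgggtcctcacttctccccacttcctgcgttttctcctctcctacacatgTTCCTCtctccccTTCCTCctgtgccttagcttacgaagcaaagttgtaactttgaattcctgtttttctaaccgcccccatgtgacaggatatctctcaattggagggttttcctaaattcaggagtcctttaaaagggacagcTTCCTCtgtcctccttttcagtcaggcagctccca
F13a1, chr13:37050245-37050494, minus strand: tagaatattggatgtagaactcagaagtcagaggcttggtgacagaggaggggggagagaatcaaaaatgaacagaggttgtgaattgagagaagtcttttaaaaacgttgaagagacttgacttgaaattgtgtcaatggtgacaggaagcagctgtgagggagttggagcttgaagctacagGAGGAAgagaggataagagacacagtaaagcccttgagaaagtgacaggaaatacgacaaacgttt
Cd163, chr6:124304401-124304650, plus strand: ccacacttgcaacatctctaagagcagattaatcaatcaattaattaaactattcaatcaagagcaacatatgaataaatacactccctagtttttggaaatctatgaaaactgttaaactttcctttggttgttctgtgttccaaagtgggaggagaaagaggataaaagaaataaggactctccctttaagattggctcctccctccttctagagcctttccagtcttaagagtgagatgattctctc
Folr2, chr7:101857191-101857440, minus strand: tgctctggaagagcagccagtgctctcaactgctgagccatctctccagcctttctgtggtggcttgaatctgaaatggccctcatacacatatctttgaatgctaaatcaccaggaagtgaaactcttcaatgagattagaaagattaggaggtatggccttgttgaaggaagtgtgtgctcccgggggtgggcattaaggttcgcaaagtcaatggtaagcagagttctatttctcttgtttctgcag
The Mrc1 window held 3 such matches, all reversed, and the F13a1 window shown held 1. F13a1 and Folr2 each had a further window that is not shown, chr13:37049214-37049463 and chr7:101845332-101845581, with 0 matches. A match was found in 2 of the 9 genes, Mrc1 and F13a1. By window this was 2 of 11, against 23.3% of 32851 windows of this length. TGCTGA, a short site of MAF factors, was in 3 of the 11 windows, of Folr2 and Timd4, and in 16.1% of all windows. The C/EBP site TTGCNNAA was in 0 of the 9 genes and in 9.56% of all windows. Both strands were searched, and the 3 motifs can overlap one another. A match describes the letters of a window only.

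The CF-KI library held 15077 barcodes with a median of 1115 UMIs and 14.2% mitochondrial UMIs, and the control library 11257 barcodes with 1158 UMIs and 3.46%. After removal of doublets and of barcodes under 200 genes, 13175 and 10193 nuclei were left. The clustering left the 10 genes out, and 2 clusters were macrophage-like, with all 5 of Csf1r, Adgre1, Ms4a7, Cybb and P2ry6 raised. They held 587 CF-KI nuclei (4.46%, 95% exact binomial interval 4.11 to 4.82) and 829 control nuclei (8.13%, 7.61 to 8.68), with a median of 1246 and 844 UMIs. Cardiomyocyte markers in these nuclei summed to 15977 CPM in CF-KI and 4876 in control, with 8 of 8 detected in each. Free RNA was estimated from those markers at 66.7% and 23.8% of their UMIs, as the median level of a marker relative to all kept nuclei of the library. This estimate takes free RNA to have the composition of all kept nuclei together, which was not tested. Neutrophil markers summed to 340 CPM (5 of 7 detected, Il1r2 and Ly6g at 0) and 42.0 CPM (4 of 7 detected). Airway epithelial markers ran the other way, at 1.02 CPM in CF-KI (1 of 6 detected) and 708 CPM in control (5 of 6 detected). The control library also held 105 airway epithelial-like nuclei and the CF-KI library 0, and the part of this tissue in the differences below was not tested. Monocyte markers summed to 249.3 and 342.2 CPM and no cluster of the main clustering was named monocyte-like. The markers Plac8, Ly6c2, Chil3, Treml4, Ace and Itgal were left out of that clustering along with the 10 genes, which limits how far it could separate monocytes. At a limit of 5% mitochondrial UMIs, a cluster of 12 CF-KI and 33 control nuclei had 8 monocyte and 7 B cell markers raised and stayed unnamed. All intervals cover counting error only.

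All 10 genes were lower in the CF-KI macrophage-like nuclei than in the control ones. Levels are CPM, counts per 1000000 non-mitochondrial UMIs, summed over the nuclei of a class in a library, and ratios are CF-KI over control on the log2 scale. Lyve1, a hyaluronan receptor, was at 278 CPM (246 to 313, 95% exact Poisson interval) in CF-KI and at 686 (631 to 744) in control. Its log2 ratio was -1.30 (-1.52 to -1.09). Folr2, a folate receptor, was at 112 CPM (92.0 to 135) and 435 (391 to 482), a log2 ratio of -1.95 (-2.28 to -1.65). Timd4, a receptor for phosphatidylserine on dying cells, was the rarest of the resident genes. It was at 21.4 CPM (13.2 to 32.7) from 21 UMIs in CF-KI and 72.0 (55.0 to 92.7) from 60 UMIs in control, a log2 ratio of -1.73 (-2.55 to -1.02). For each of these 3 genes the counting intervals of the libraries did not overlap. Overlap of this kind was not counted for all features. A ratio interval clear of 0, a looser measure that these 3 genes also met, was common. Of the 9927 features with at least 20 UMIs over both libraries, it lay below 0 for 1616 and above 0 for 1444.

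Cd163, the scavenger receptor for haemoglobin bound to haptoglobin, was at 295 CPM (262 to 331) in CF-KI and 985 (918 to 1054) in control, a log2 ratio of -1.74 (-1.94 to -1.54). Mrc1, the mannose receptor, was at 578 CPM (531 to 627) and 1226 (1152 to 1304), a log2 ratio of -1.08 (-1.24 to -0.94). F13a1, the A subunit of coagulation factor XIII, was the most abundant of the 10 in both libraries. It was at 595 CPM (548 to 645) and 1508 (1426 to 1594), a log2 ratio of -1.34 (-1.49 to -1.20). Cd163 thus had a lower ratio than the other 2 scavenging genes, with intervals that did not overlap theirs.

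Ccr2 was at 127 CPM (106 to 151) in CF-KI and 287 (252 to 326) in control, a log2 ratio of -1.17 (-1.498 to -0.86). Cx3cr1, the fractalkine receptor of monocytes and some resident macrophages, was at 34.6 CPM (24.0 to 48.3) and 69.6 (52.9 to 90.0), a log2 ratio of -1.001 (-1.67 to -0.37). By CPM the recruitment gene Ccr2 was therefore lower in CF-KI as well. Divided by the 5 genes that define the class, its log2 ratio was -0.16 (-0.50 to 0.18), an interval that holds 0. Adap2, an ARF GTPase-activating protein that binds phosphoinositides, was at 105 CPM (85.5 to 127) and 364 (324 to 407), a log2 ratio of -1.79 (-2.13 to -1.47). Ly86, also called MD-1, the partner of the Toll-like receptor relative Cd180, was at 98.7 CPM (80.0 to 120) and 395 (353 to 440). Its log2 ratio of -1.996 (-2.34 to -1.67) was the lowest of the 10.

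**Figure D1:**
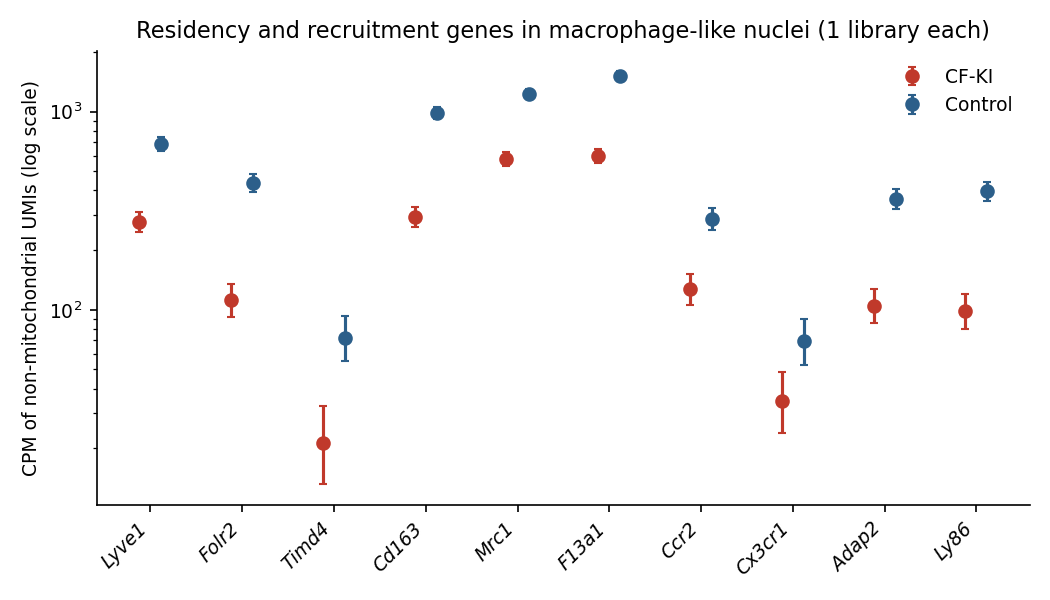
Level of each gene (CPM of non-mitochondrial UMIs, log axis) in macrophage-like nuclei, 1 point per library, red for CF-KI and blue for control, with 95% exact Poisson intervals as bars. The control point is above the CF-KI point for all 10 genes, from Timd4 at 21.4 and 72.0 CPM to F13a1 at 595 and 1508 CPM.

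At least 2-fold lower in CF-KI were 10 of 10 genes, against 7.43% of the 9927 features with at least 20 UMIs over both libraries, and 9.9% of the features were at least 2-fold higher. The median log2 ratio of the 10 was -1.54 and that of all features -0.030. The 5 genes that define the class, the definers, were lower too, from P2ry6 at -1.24 and Csf1r at -1.19 to Adgre1 at -0.91, Ms4a7 at -0.74 and Cybb at -0.66. Divided by the summed UMIs of these 5, the 10 genes had a median log2 ratio of -0.52, and 9 of 10 stayed below 0. This division moves every feature alike, and the median of all features became 0.98. The share of all features below 0 after it, or with an interval below 0, was not computed. The interval lay below 0 for 6 of the 10 genes. It did so for Lyve1 (-0.29, -0.53 to -0.05), Folr2 (-0.95, -1.29 to -0.61) and Cd163 (-0.73, -0.95 to -0.50). It did so too for F13a1 (-0.33, -0.51 to -0.15), Adap2 (-0.78, -1.14 to -0.44) and Ly86 (-0.99, -1.35 to -0.64). It held 0 for Timd4 (-0.74, -1.54 to 0.01), Mrc1 (-0.07, -0.26 to 0.11), Ccr2 (-0.16, -0.50 to 0.18) and Cx3cr1 (0.003, -0.66 to 0.65). With free RNA subtracted at the shares estimated above, the median was -0.55 and 3 of 10 were at least 2-fold lower: Folr2, Adap2 and Ly86. In the 268 CF-KI and 770 control nuclei with cardiomyocyte markers at most 1% of UMIs, the median was -1.20 and 6 of 10 were at least 2-fold lower. The median of all features was 0.055 with free RNA subtracted and 0.028 with the limit on cardiomyocyte markers. The share of all features at least 2-fold lower was not computed for either, so these counts have no background beside them. The part of free RNA in the difference was otherwise not tested.

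**Figure D2:**
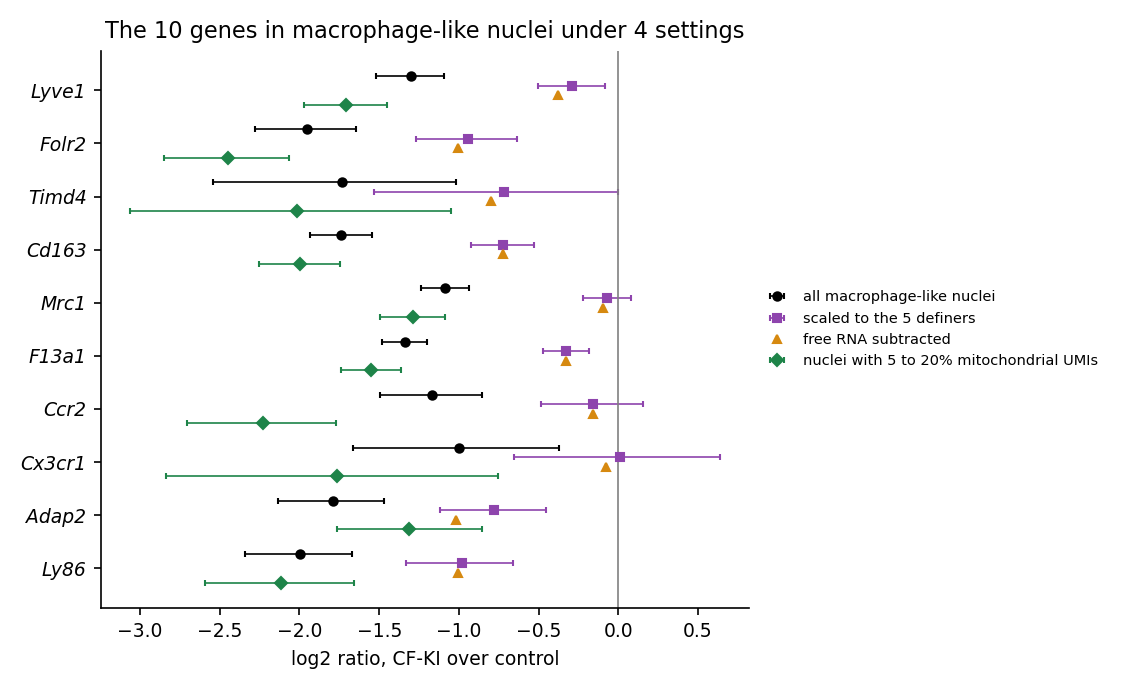
Log2 ratio of each gene, CF-KI over control, in macrophage-like nuclei: as summed (black), divided by the 5 definers (purple), with free RNA subtracted (orange, no interval) and in nuclei with 5 to 20% mitochondrial UMIs (green), with 95% counting intervals as bars. All genes but Cx3cr1 lie below 0 in all 4, and Mrc1, Ccr2 and Cx3cr1 lie near 0 after division by the definers or subtraction of free RNA.

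Ratios between the genes do not depend on the library total. Ccr2 per Folr2 UMI was 1.14 in CF-KI and 0.660 in control, a log2 ratio of ratios of 0.78 (0.33 to 1.24), and Ccr2 per Cd163 UMI was 0.431 and 0.291 (0.56, 0.18 to 0.94). Ccr2 per Lyve1 UMI was 0.458 and 0.419 (0.13, -0.26 to 0.52), and Ccr2 per Mrc1 UMI 0.220 and 0.234 (-0.09, -0.45 to 0.26). Of the 6 resident and scavenging genes, Ccr2 was higher relative to 2 beyond counting error, Folr2 and Cd163. Cx3cr1 was also higher relative to Folr2 (0.95, 0.21 to 1.66) and Cd163 (0.73, 0.04 to 1.40) and not beyond counting error relative to the other 4.

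The ratios varied with the mitochondrial share of the nuclei. Below 5% mitochondrial UMIs, with 40 CF-KI and 514 control nuclei, 9 of 10 genes were lower and the median log2 ratio was -2.16, beside -0.21 for all features. From 5 to 10% (151 and 182 nuclei) the median was -2.15, with 10 of 10 lower, and from 10 to 20% (242 and 106 nuclei) it was -1.53, with 8 of 8 measured genes lower. Above 20% (154 and 27 nuclei) 4 of 7 measured genes were lower and the median was -0.13. The medians of all features in these 3 bands were -0.04, -0.03 and -0.07. Ccr2 and Lyve1 went opposite ways across these bands. Lyve1 was at 85.5 and 533 CPM below 5% (-2.58, -3.66 to -1.78) and at 309 and 256 CPM above 20% (0.18, -0.89 to 1.66). Ccr2 was at 148 and 158 CPM below 5% (-0.07, -0.90 to 0.64) and at 302 and 1538 CPM above 20% (-2.35, -2.98 to -1.71).

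**Figure D3:**
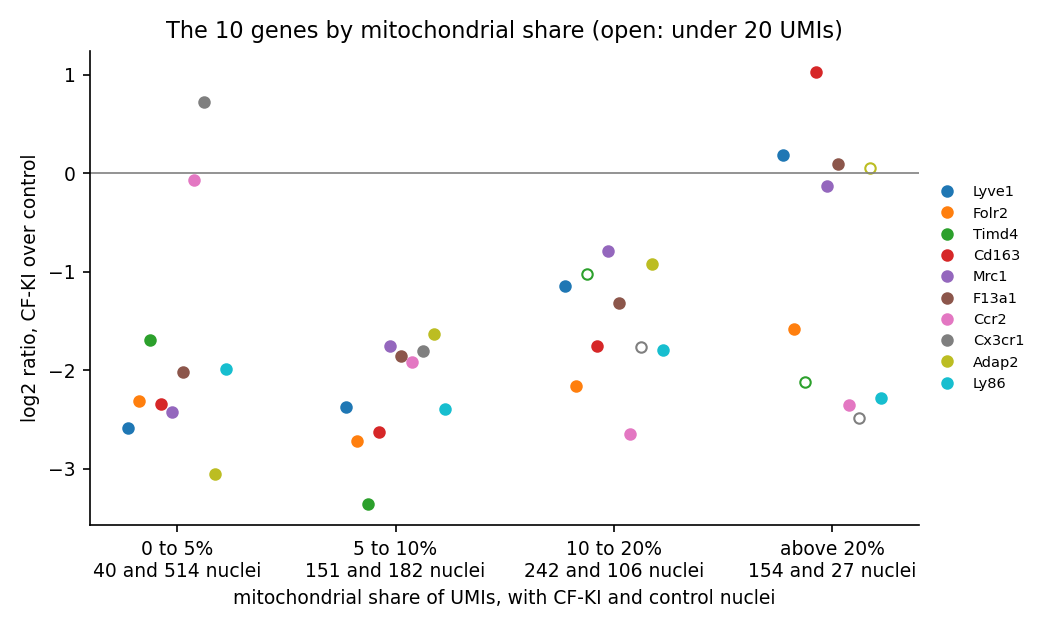
Log2 ratio, CF-KI over control, of each gene (colours) in macrophage-like nuclei split by mitochondrial share of UMIs, with the number of CF-KI and control nuclei under each band and open points for genes under 20 UMIs. Below 5% all points but those of Ccr2 and Cx3cr1 lie below -1, and above 20% Lyve1, Cd163, F13a1 and Adap2 lie above 0.

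Shares of nuclei with a UMI differed less than the levels. Lyve1 was detected in 27.3% of the CF-KI nuclei (23.7 to 31.1, 160 nuclei) and 29.2% of those in control (26.1 to 32.4, 242 nuclei). After each nucleus was thinned to 500 non-mitochondrial UMIs, which left out 36 CF-KI and 34 control nuclei, the shares were 15.8% and 21.5%. Cd163 was detected in 28.4% and 43.7% of nuclei, or 14.3% and 34.0% thinned, and Ly86 in 13.1% and 29.0%, or 5.26% and 16.1% thinned. Ccr2 was detected in 8.52% and 10.6%, or 4.72% and 7.80% thinned. In cardiomyocyte-like nuclei, which should lack these genes and had a median of 1523 and 2245 UMIs, the thinned shares were 0.914% and 0.545% for Lyve1, 0.284% and 0.503% for Cd163 and 0.126% and 0.0838% for Ccr2. Nuclei with a UMI of none of the 10 genes made up 14.0% in CF-KI and 6.39% in control, or 31.8% and 12.8% thinned.

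Lyve1 and Ccr2 shared fewer nuclei than the product of their shares gives. Of 242 control nuclei with Lyve1 and 88 with Ccr2, 4 held both, where the product of the shares gives 25.7. In CF-KI 6 nuclei held both, against 13.6, and those 6 had a median of 7436 non-mitochondrial UMIs. Lyve1 and Folr2 shared nuclei instead, 112 in control against 60.1 from the shares and 46 in CF-KI against 24.5. Timd4 and Ccr2 shared 0 of 829 control nuclei, against 5.73, and 1 CF-KI nucleus, against 1.53. Ccr2 and Ly86 shared 41 control nuclei against 25.5, and 20 CF-KI nuclei against 6.56.

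Nuclei with Lyve1 and no Ccr2 UMI numbered 238 in control (28.7%, 25.7 to 31.9) and 154 in CF-KI (26.2%, 22.7 to 29.99). Nuclei with Ccr2 and no Lyve1 UMI numbered 84 (10.1%, 8.16 to 12.4) and 44 (7.496%, 5.499 to 9.93). In control both kinds had a median of 888.5 non-mitochondrial UMIs, and in CF-KI 1232 and 1209. Most nuclei had a UMI of neither gene, 503 in control (60.7%) and 383 in CF-KI (65.2%). Their median was lower, at 732 and 931 non-mitochondrial UMIs, and the split leaves them out. Folr2 was at 48.6 CPM in the control Ccr2 nuclei and 889 in the Lyve1 nuclei, a log2 ratio of -4.06 (-5.83 to -2.95), and in CF-KI the ratio was -3.05 (-6.44 to -1.44). Cd163 was at 117 and 1361 CPM in control (-3.49, -4.51 to -2.72) and its ratio in CF-KI was -1.98 (-3.03 to -1.19). F13a1 gave -2.67 (-3.20 to -2.21) and -2.16 (-2.95 to -1.52), Mrc1 -2.24 (-2.76 to -1.79) and -1.29 (-1.89 to -0.78), and Adap2 -1.03 (-1.87 to -0.32) and -1.49 (-3.30 to -0.28), control before CF-KI. All 5 were lower beside Ccr2 in both libraries. Timd4 had 0 UMIs in the control Ccr2 nuclei and 31 in the Lyve1 nuclei, and 1 and 14 in CF-KI (-1.75, -7.68 to 0.43).

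Cx3cr1 and Ly86 sided with Ccr2. Cx3cr1 was at 185 CPM in the control Ccr2 nuclei and 53.2 in the Lyve1 nuclei, a log2 ratio of 1.78 (0.72 to 2.90), and in CF-KI the ratio was 2.59 (1.02 to 4.54). Ly86 was at 642 and 361 CPM in control (0.83, 0.35 to 1.30) and at 248 and 56.4 CPM in CF-KI (2.12, 1.20 to 3.11). Genes of MHC class II, which present peptides to T cells, were higher beside Ccr2 for 7 of 7 genes in both libraries. H2-Aa was at 3404 and 536 CPM in control, a log2 ratio of 2.66 (2.38 to 2.96), and its ratio in CF-KI was 3.90 (3.47 to 4.38). Plac8, a monocyte gene, had 91 UMIs in the control Ccr2 nuclei and 0 in the Lyve1 nuclei, and 19 and 1 in CF-KI. The 91 UMIs lay in 8 of the 84 nuclei and the 19 in 4 of the 44, so most Ccr2 nuclei had none. Cybb, an NADPH oxidase subunit, gave 0.81 (0.40 to 1.21) in control and 1.97 (1.46 to 2.49) in CF-KI, while Ms4a7 gave -2.38 (-4.18 to -1.22) and -1.21 (-2.56 to -0.20). The other definers were also lower beside Ccr2 in control: Csf1r (-0.85, -1.29 to -0.45), Adgre1 (-1.45, -2.63 to -0.55) and P2ry6 (-0.65, -1.14 to -0.21). In CF-KI Csf1r gave 0.04 (-0.54 to 0.58), Adgre1 -0.36 (-1.76 to 0.72) and P2ry6 -0.81 (-1.69 to -0.09). Dendritic cell markers were also higher beside Ccr2, with a log2 ratio of 2.54 (1.01 to 4.48) in control from 12 and 5 UMIs, and 1.18 (-0.50 to 2.76) in CF-KI from 7 and 9 UMIs, where the interval holds 0. Whether the gap between these nuclei differs between the libraries was not tested.

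**Figure D4:**
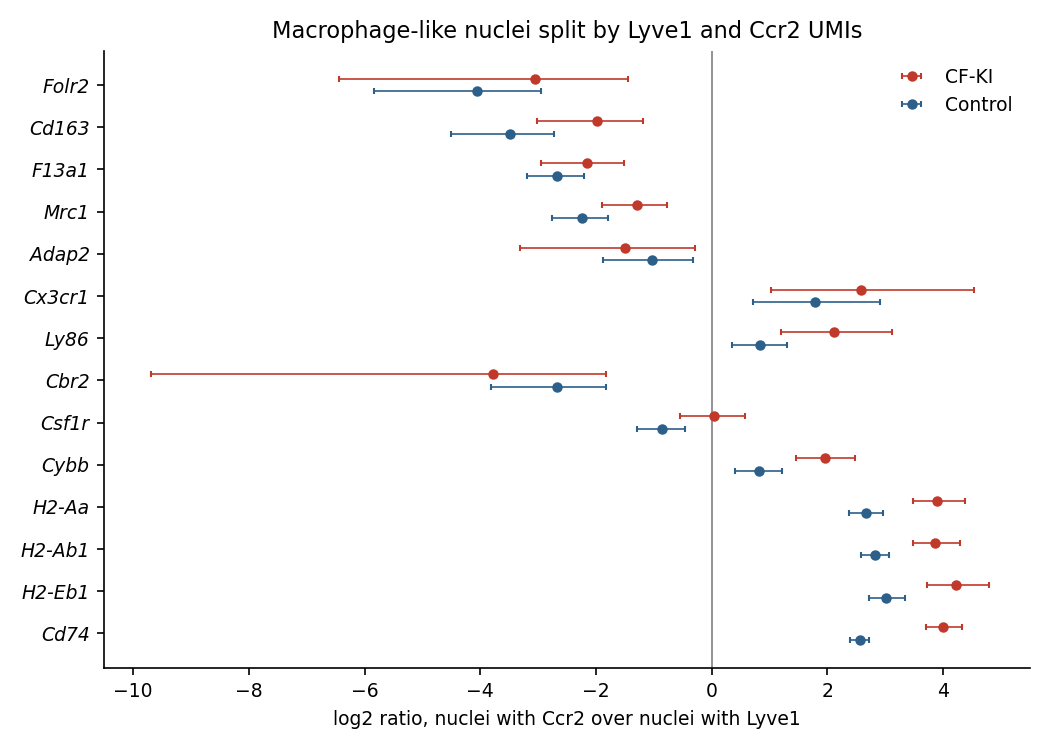
Log2 ratio of CPM in macrophage-like nuclei with Ccr2 and no Lyve1 UMI over those with Lyve1 and no Ccr2 UMI, red for CF-KI and blue for control, with 95% counting intervals as bars. Folr2, Cd163, F13a1, Mrc1, Adap2 and Cbr2 lie below 0 and Cx3cr1, Ly86, Cybb and the MHC class II genes above 0 in both libraries.

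The smaller macrophage-like cluster, led by the cell division genes Top2a and Mki67, held 46 CF-KI and 60 control nuclei. In control, Folr2 (-1.58), Timd4 (-1.64), F13a1 (-1.26), Adap2 (-1.13), Lyve1 (-0.77), Mrc1 (-0.57) and Cd163 (-0.38) were lower in it than in the larger cluster, with intervals below 0. In CF-KI the interval was below 0 for Cd163 (-1.31, -2.53 to -0.44) and Mrc1 (-0.52, -1.11 to -0.02). Timd4 had opposite signs, 1.62 (-0.54 to 3.10) in CF-KI and -1.64 (-5.03 to -0.03) in control. It had only 4 and 2 UMIs in the smaller cluster. Ccr2 had opposite signs too, 0.63 (-0.33 to 1.40) and -0.59 (-1.39 to 0.05). So did Cx3cr1, -0.91 (-6.82 to 1.11) and 0.13 (-1.34 to 1.19), from 1 and 7 UMIs in that cluster. All of these intervals other than that of Timd4 in control hold 0. Without this cluster the median log2 ratio between the libraries was -1.56.

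Across the classes with at least 50 nuclei, Folr2, Cd163, Mrc1, F13a1 and Ccr2 were highest in macrophage-like nuclei in both libraries. Of the UMIs in kept nuclei, these nuclei held 75.9% of F13a1 in CF-KI and 90.8% in control, and 19.7% and 28.7% of Adap2. Lyve1 was highest in lymphatic endothelial-like nuclei, at 760 CPM in CF-KI and 864 in control. It was above the macrophage-like level by 1.46 (1.13 to 1.77) on the log2 scale in CF-KI, and by 0.34 (-0.01 to 0.66) in control, where the 2 classes did not differ beyond counting error. Adap2 was at 218 CPM in pericyte-like nuclei of CF-KI, above macrophage-like ones by 1.06 (0.60 to 1.4995), and at 369 against 364 CPM in control. Ly86 was highest in B cell-like nuclei, at 203 CPM in CF-KI and 412 in control. That cluster was mixed: 33 of 74 CF-KI and 84 of 122 control nuclei had 2 or more B cell markers, 9 and 10 had T or NK cell markers, and 7 in each library had monocyte markers. The 7 CF-KI nuclei with monocyte markers held 7 of the 8 Cx3cr1 UMIs of the cluster, and the 9 with T or NK cell markers, some of them the same nuclei, held 6. Ly86 exceeded its macrophage-like level there by 1.07 (0.33 to 1.70) in CF-KI and by 0.07 (-0.35 to 0.45) in control. Timd4 and Cx3cr1 were highest in macrophage-like nuclei in control, and in CF-KI their first 2 classes did not differ beyond counting error.

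**Figure D5:**
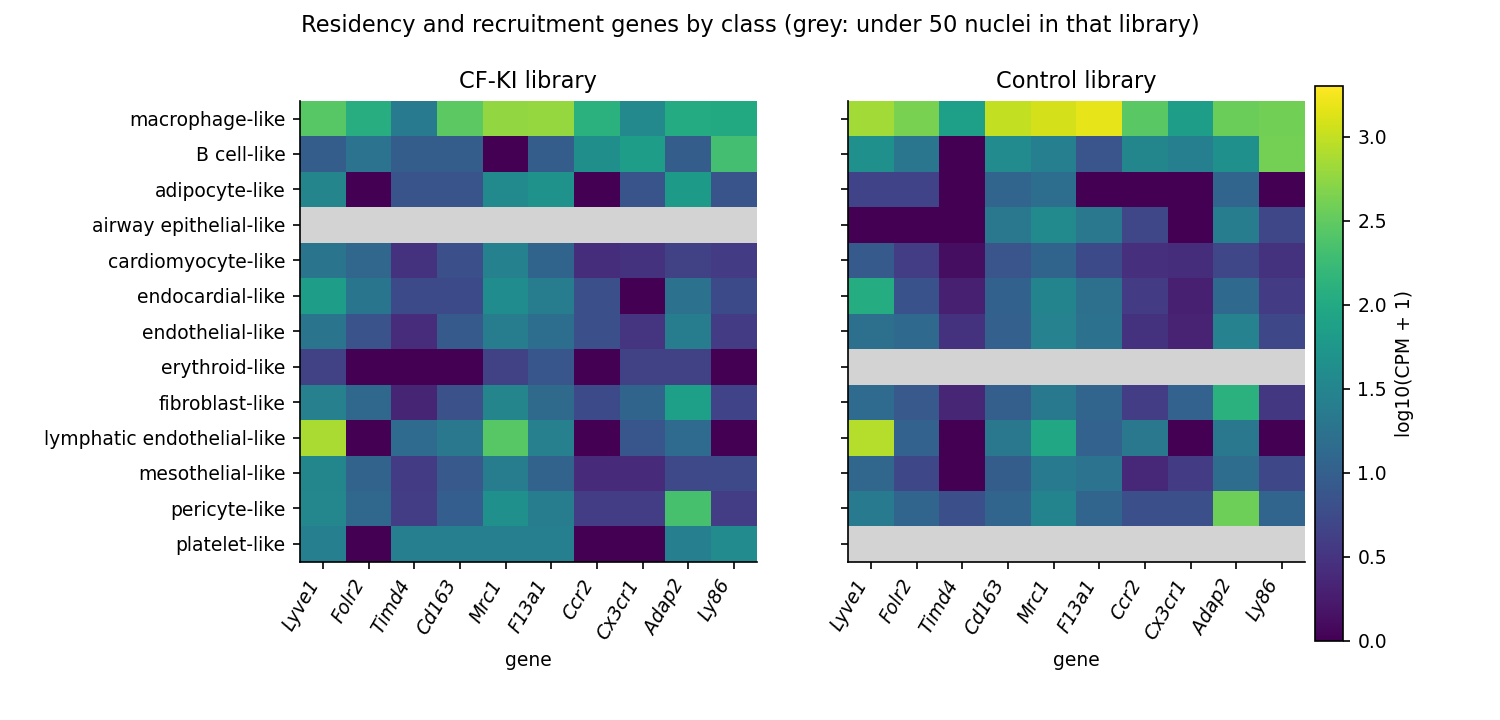
Level of each gene as log10(CPM + 1), by class (rows) and library (panels), with classes under 50 nuclei in a library in grey. The macrophage-like row is the brightest for 5 genes in the CF-KI panel (Folr2, Cd163, Mrc1, F13a1 and Ccr2) and for these and Timd4 and Cx3cr1 in the control panel, with Lyve1 also high in lymphatic endothelial-like, Adap2 in pericyte-like and Ly86 in B cell-like nuclei.

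In the other classes the genes were not lower throughout. In lymphatic endothelial-like nuclei Lyve1 was at 760 and 864 CPM (-0.19, -0.60 to 0.23), while Mrc1 was at 275 CPM in CF-KI and 90.5 in control, from 42 and 9 UMIs (1.55, 0.55 to 2.83). In fibroblast-like nuclei 7 of 9 measured genes were higher in CF-KI, with a median log2 ratio of 0.52 beside -0.02 for all features, and free RNA there was estimated at 39.6% in CF-KI and 16.0% in control. In cardiomyocyte-like nuclei 6 of 9 were higher (median 0.47, all features 0.21). In endothelial-like nuclei 5 of 6 were lower (median -0.22, all features -0.08). Adap2 was lower in fibroblast-like nuclei (72.6 and 129 CPM, -0.83, -1.05 to -0.61) and in pericyte-like ones (218 and 369 CPM, -0.75, -1.19 to -0.34). Different clusters hold the fibroblast-like nuclei of the libraries: cluster 0 had 2855 CF-KI and 102 control nuclei, and cluster 2 had 211 and 2298.

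The other genes of these programmes were read from lists. Of all 9927 features with at least 20 UMIs, 52.0% were lower in CF-KI and 7.43% at least 2-fold lower. Of 22 further residency genes 22 were lower in CF-KI and 18 at least 2-fold, with a median log2 ratio of -1.24. Lowest were Ltc4s (-1.81), a leukotriene synthase, and the complement genes C1qc (-1.64) and C1qb (-1.62), and highest were Igf1 (-0.51), Cd209f (-0.63) and Wwp1 (-0.74). Of 23 further recruitment and monocyte genes 21 were measured, 16 were lower, 5 at least 2-fold, with a median of -0.46. Among the lowest were Ly6c2 (-1.46) and Plac8 (-1.35), and highest were Treml4 (0.79), Nr4a1 (0.39) and Cd52 (0.25). MHC class II genes were lower in 7 of 7 cases, all at least 2-fold, with a median of -1.31. Immediate early and stress genes had a median of -0.005, with Dusp1 highest (1.36) and Hspa1b lowest (-1.49). Of 12 partners and relatives of the 10 genes 8 were measured and 6 were lower, 3 at least 2-fold, with a median of -0.63. Lowest were Adap1 (-1.58), Cd180 (-1.45), which binds Ly86, and Havcr2 (-1.001), and highest was Tgm2 (1.21), a transglutaminase as F13a1 is. Long RNAs kept in the nucleus were higher in CF-KI for 4 of 4 measured, from Malat1 (0.14) to Meg3 (1.11).

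Ccl2, the chemokine that Ccr2 binds, was found in fibroblast-like and macrophage-like nuclei of both libraries. In fibroblast-like nuclei it was at 102 CPM (91.5 to 113, 344 UMIs) in CF-KI and 37.5 (31.7 to 43.9, 152 UMIs) in control. In CF-KI lymphatic endothelial-like nuclei had a level that was not separable from this, 98.3 CPM (55.0 to 162). In macrophage-like nuclei Ccl2 was at 33.6 CPM (23.1 to 47.2) in CF-KI and 161 (135 to 191) in control, the highest level of that library. Few nuclei carried it: the 134 control UMIs lay in 29 of 829 nuclei (3.498%) and the 33 CF-KI UMIs in 26 of 587 (4.43%), or 2.39% and 2.72% thinned. The share of nuclei with Ccl2 was thus not lower in CF-KI, while the level was. Ccl7, another Ccr2 ligand, was at 38.3 CPM (31.9 to 45.5) in fibroblast-like nuclei of CF-KI and 17.0 (13.2 to 21.5) in control. In control it was highest in macrophage-like nuclei, at 37.2 CPM (25.3 to 52.8), against 17.3 (10.1 to 27.7) in those of CF-KI. Csf1, the growth factor of macrophages, was highest in mesothelial-like nuclei, at 236 CPM in CF-KI and 305 in control. Cx3cl1, the ligand of Cx3cr1, was highest in endothelial-like nuclei, at 14.6 and 20.8 CPM, and Il34 in pericyte-like nuclei, at 53.0 and 56.5 CPM. Ccl12 and Ccl8 were highest in macrophage-like nuclei, Ccl12 at 15.3 and 69.6 CPM and Ccl8 at 14.2 and 21.6 CPM. Of the synthases of hyaluronan, the ligand of Lyve1, Has2 was highest in fibroblast-like nuclei, at 76.2 and 46.8 CPM, and Has1 in mesothelial-like ones, at 44.9 and 42.0 CPM. Has3 led in classes with 1 and 2 UMIs.

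Genes with the most similar profile were found by Pearson's r on log2(CPM + 1) over 20 profiles, 10 classes in each library, among 6367 genes. The profiles of a library share its depth and free RNA. Nearest were Stab1 for Lyve1 (0.90), Slamf9 for Folr2 (0.89), C1qa for Timd4 (0.85) and F13a1 (0.97), Ctsa for Cd163 (0.94) and P2ry6 for Mrc1 (0.89). The recruitment gene Ccr2 came next for Folr2 (0.88), so these profiles over classes do not separate residency from recruitment genes. For Ccr2 it was Lst1 (0.95), for Cx3cr1 Cd53 (0.90), for Adap2 Pid1 (0.90) and for Ly86 Arhgap30 (0.98), with H2-Ab1 next (0.97).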

How the data were processed

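Single nuclei of mouse heart were profiled with 10x Genomics 3' v3 chemistry, 1 library per group. The authors deposited raw UMI counts per gene and barcode, and per the submitters' processing notes these came from Cell Ranger 6.1.1 and mm10. Whether intronic reads were counted is not given in the sources used here. Barcodes under 200 genes were removed, and doublets were removed by Scrublet score up to the expected share (1792 CF-KI and 1003 control), since its automatic threshold called 2286 and 0. There was no mitochondrial limit. Both libraries were clustered together (scanpy 1.11.5, Leiden resolution 0.8) without the 10 genes and the companion lists, and clusters were named from marker lists. The fold used in naming clusters was adjusted after cluster names were seen. UMIs were summed per class and library. Log2 ratios had 0.5 UMIs added and exact conditional binomial intervals, and a feature was measured with at least 20 UMIs. TMM and median-of-ratios scaling used edgeR 4.0.16 and DESeq2 1.42.0 on the deposited counts. The ratio was tested on simulated data. Total depth was 21603653 and 18040776 UMIs, and 46 barcode sequences occurred in both libraries, 2 and 3 of them among macrophage-like nuclei. The members and lists were chosen with earlier results of these data known. Named were all 10 members, the 5 definers, the 3 highest and 3 lowest of a companion list, the highest class of each ligand, and the closest profiles; a gene of the recruitment list that this rule names is not reported here. The split by Lyve1 and Ccr2 was chosen after values were seen, as were the genes named in it.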

Additional observations from a re-analysis of the deposited data

How the results depend on the processing

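The median log2 ratio of the 10 genes (-1.54) lay between -1.20 and -1.58 under most settings. It was -2.24 at a limit of 5% mitochondrial UMIs, -2.16 in the nuclei under 5% of the original clusters, -1.88 in nuclei with 5 to 20%, -0.13 above 20%, -0.55 with free RNA subtracted, -0.84 with each nucleus thinned and -0.52 scaled to the definers. The count at least 2-fold lower, 10, became 6 with cardiomyocyte markers at most 1% of UMIs, 3 above 20% mitochondrial, 3 with free RNA subtracted, 4 thinned and 0 scaled to the definers, and was 8 to 10 otherwise. The share of all features past this fold was computed for the main setting only. Scaling to the definers moves all features alike, to a median of 0.98, so its count and signs describe the genes against the definers only. Signs reversed above 20% mitochondrial for Adap2 (0.056), Cd163 (1.03), F13a1 (0.10) and Lyve1 (0.18), all with intervals that hold 0 and Adap2 from 14 and 2 UMIs, under the limit of 20, and for Cx3cr1 with cardiomyocyte markers at most 1% (0.025), under 5% mitochondrial (0.73) and scaled to the definers (0.011, with 0.5 UMIs added), where the intervals hold 0 too. The cause was not tested. In macrophage-like over other nuclei all 360 alternative values stayed above 0. The mitochondrial bands, the limit on cardiomyocyte markers, the scaling to definers and leaving out shared barcodes or the dividing cluster were chosen after seeing the data. Adding monocyte-like clusters gave no value, since the main clustering, which left out most monocyte markers, named none. No paired analysis was possible because each group is 1 library. Depth limits Timd4 and Cx3cr1 most, with 21 and 34 UMIs in the CF-KI macrophage-like nuclei.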
